A study of Mus musculus with 12 samples.

Results

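Heat shock proteins and their co-chaperones were examined in non-endothelial stromal cells (SCs) of mouse lymph nodes. The set holds every gene of the deposited expression table whose symbol marks it as an Hspa, Hspb, Hspd, Hspe, Hsph or Hsp90 chaperone, a J-domain co-chaperone (Dnaja, Dnajb, Dnajc), a Bag nucleotide exchange factor or a heat shock factor (Hsf), and that reached 1 RPKM (reads scaled to exon length in kilobases and to library size) in at least 3 of 12 libraries. In total 62 of the 10253 genes in the table matched the names, and all 62 passed the expression minimum. By family these were 12 Hspa, 3 Hspb, 3 Hsp90, 2 Hspd and Hspe, 1 Hsph, 4 Dnaja, 9 Dnajb, 22 Dnajc, 5 Bag and 1 Hsf gene. The choice used names and a minimum level, not any difference between groups.

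The cells were CD45-CD24-CD31-Pdpn+ SCs, sorted after enzymatic digestion from gut-draining mesenteric (mLN) or skin-draining peripheral (pLN) lymph nodes of adult BALB/c mice kept either under specific pathogen-free conditions (SPF) or without microbes (germ-free, GF). The 4 groups were mLN SPF, mLN GF, pLN SPF and pLN GF, with 3 libraries each. No gene had been altered and no treatment given, and the methods give mice as female unless stated otherwise. Among the SPF lines of one institute the methods list CD90.1 as the BALB/c line, without naming the line used for these libraries. The GF animals were derived by cesarean section at another institute, and the age ranges overlapped without being identical. Housing and colony can therefore not be told apart. One label field gives the pLN tissue as mesenteric although its title says pLN, and the title was used. The labels do not say whether the libraries of a group came from separate animals or pools, so p-values measure the spread between these libraries.

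Heat shock proteins bind unfolded polypeptides and keep them from aggregating. Hsp70 proteins (Hspa genes) work in an ATP cycle in which J-domain proteins deliver the client and speed up hydrolysis, and Bag and Hsph proteins open the nucleotide pocket again; Hsp90 proteins take over later folding steps of kinases and receptors, and small Hspb proteins hold clients without using ATP. The cytosolic inducible genes are switched on by heat shock factor 1 (Hsf1) through the heat shock element, repeated inverted units of GAA, and the genes of the endoplasmic reticulum by the unfolded protein response through the ER stress element. Secretory cells such as fibroblasts, which export large amounts of collagen, rely on the latter group.

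Promoter sequences for 50 of the 62 genes were found in the RefSeq set for GRCm38.p6, and the 250 bases before each start site were searched for these elements on both strands. They are shown for genes that later results turn on, up to the annotated gene start, 5′ to 3′ on the gene's own strand, with the matched element in capitals. Hspa1a (chr17:34972157-34972406, minus strand) and Hspa1b (chr17:34959239-34959488, minus strand) encode the inducible Hsp70 and are shown because their upstream sequences are nearly the same, Hspb1 (chr5:135887669-135887918, plus strand) because it carried 2 separate elements, and Hspe1 (chr1:55087898-55088131, plus strand) because it carried the longest run of units.
Hspa1a: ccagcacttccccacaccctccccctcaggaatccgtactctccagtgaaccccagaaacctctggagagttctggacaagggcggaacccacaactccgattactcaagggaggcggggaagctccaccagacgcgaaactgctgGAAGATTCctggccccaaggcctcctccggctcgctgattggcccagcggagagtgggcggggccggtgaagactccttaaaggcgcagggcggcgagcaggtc
Hspa1b: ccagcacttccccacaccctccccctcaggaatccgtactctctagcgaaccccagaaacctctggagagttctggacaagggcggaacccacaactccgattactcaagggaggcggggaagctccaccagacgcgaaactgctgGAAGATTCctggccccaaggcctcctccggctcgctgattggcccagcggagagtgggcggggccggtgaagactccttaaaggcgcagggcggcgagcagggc
Hspb1: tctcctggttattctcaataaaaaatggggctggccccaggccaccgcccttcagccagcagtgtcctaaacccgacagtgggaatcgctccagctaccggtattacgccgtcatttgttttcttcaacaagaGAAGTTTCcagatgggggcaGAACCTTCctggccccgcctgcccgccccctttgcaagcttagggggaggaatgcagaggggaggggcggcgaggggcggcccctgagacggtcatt
Hspe1: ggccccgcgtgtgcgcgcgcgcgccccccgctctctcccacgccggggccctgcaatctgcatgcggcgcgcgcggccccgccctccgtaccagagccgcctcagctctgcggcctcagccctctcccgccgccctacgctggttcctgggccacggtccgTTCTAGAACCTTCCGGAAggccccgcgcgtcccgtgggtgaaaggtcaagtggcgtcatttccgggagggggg

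Hspa1a and Hspa1b differed at 3 of the 250 bases (98.8% identical), at C44T, T47C and T249G counted from the 5′ end of the window with the Hspa1a base first, and the element was the same in both. A heat shock element of 2 inverted units (GAANNTTC or TTCNNGAA) was present before 12 of the 50 genes, beside 14.5% of all 27025 genes in the promoter set. The longer element of 3 units (GAANNTTCNNGAA or TTCNNGAANNTTC), which contains the shorter one, was present before 3 of the 50 genes (Dnajb6, Hspd1 and Hspe1) and before 0.514% of all genes. Hspd1 and Hspe1 are transcribed in opposite directions from a shared stretch, so that their element is one and the same. A match of letters is a description only and shows neither binding nor use.

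The ER stress element (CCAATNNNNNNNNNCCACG or its reverse complement) was found before 3 of the 50 genes, Hspa5, Hsp90b1 and Dnajc3, and before 0.13% of all genes. It is shown with 5 flanking bases on each side, beside the elements of Hsph1 and Dnajb6, for Hspa5 (chr2:34772020-34772048, plus strand), Hsp90b1 (chr10:86705633-86705661 and chr10:86705528-86705556, minus strand), Dnajc3 (chr14:118937822-118937850, plus strand), Hsph1 (chr5:149636357-149636374, minus strand) and Dnajb6 (chr5:29735847-29735869, plus strand). The elements of Hspa5, Hsph1 and Dnajb6 lie before the RefSeq start site used here but within the longer gene body of GENCODE M21.
Hspa5: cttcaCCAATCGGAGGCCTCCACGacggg
Hsp90b1 (distal): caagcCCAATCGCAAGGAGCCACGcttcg
Hsp90b1 (proximal): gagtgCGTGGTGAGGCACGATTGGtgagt
Dnajc3: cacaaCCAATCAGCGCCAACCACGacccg
Hsph1: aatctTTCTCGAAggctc
Dnajb6: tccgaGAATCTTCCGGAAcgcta

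The depth of the libraries ranged from 4623 (pLN GF replicate 3) to 14091 (mLN GF replicate 2) in units of 1000 reads, as recovered from the steps between RPKM values, and replicates of a group correlated at 0.973 to 0.994 over all genes. Pdpn, the sort marker, stood at 53.9 to 80.5 RPKM, while the endothelial genes Pecam1 (up to 1.58 RPKM), Cdh5 (up to 0.307) and Prox1 (up to 0.204) were near 0. Exceptions on the endothelial lists were Tek, at 57.8 to 84.8 RPKM in mLN and 10.8 to 22.6 in pLN, and Ccl21a, a chemokine that reticular SCs also make, at 76.6 to 585 RPKM in mLN and 3211 to 6962 in pLN. Of 9 perivascular and smooth muscle markers, 8 in SPF and 9 in GF mice were lower in mLN, with summed levels of 33.3 to 135 RPKM in the 6 mLN libraries and 551 to 793 in the 6 pLN libraries. The part of these genes in the differences between nodes described below was not tested, and in bulk RNA fewer cells of a type and less RNA per cell cannot be told apart. Both SPF replicate 2 libraries lay apart from the other SPF libraries on the third principal component (4.95% of variance), at 13 and 15.9 against -16.6 to -4.9 for the other 4.

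Which chaperones do these SCs express? Per length of exon, the highest member of the set was Hspa5 (BiP, the Hsp70 of the endoplasmic reticulum), with a mean of 472.5 RPKM over the 12 libraries and a range of 398 to 547. It was followed by Dnajb1, the J-domain partner of inducible Hsp70, at a mean of 265 RPKM, Hsp90ab1, the constitutive cytosolic Hsp90, at 243, and Hsp90b1 (GRP94, the Hsp90 of the endoplasmic reticulum, chr10:86690209-86705509), at 204. The ranges of these 3 genes overlapped. The highest members of the other families were Bag3 (68.8 RPKM), Hspb1 (68.5), Dnajc10 (63.8), Hspe1 (54.0), Dnaja1 (24.7), Hsph1 (22.0) and Hsf1 (13.2). At the low end were Hspa4l (1.204 RPKM) and Dnajc16 (1.42).

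Location of the node was compared first, as mLN against pLN within each housing. With limma on log2(RPKM + 1) across the 9764 genes tested, 18 of the 62 members passed an adjusted p of 0.05 in SPF mice (29%, beside 33.5% of all genes tested) and 16 in GF mice (25.8%, beside 35.4%). In SPF mice 9 were higher in mLN (19.7% of all genes were) and 9 lower (13.8% of all genes), and in GF mice 10 were higher (17.1% of all genes) and 6 lower (18.4% of all genes). With the added demand of a change of at least 2-fold, 6 members were called in each housing (9.68%), beside 10.4% of all genes in SPF mice and 11.4% in GF mice. In either direction together, the shares of the set were below those of all genes in both housings, while the shares lower in mLN of SPF mice (14.5%, and 8.06% at 2-fold) were slightly above them. Averaged over housing, 20 members passed, 12 higher (beside 26.1% of all genes) and 8 lower in mLN (beside 20.5%, or 46.7% in either direction), and at 2-fold 1 was higher (beside 4.19%) and 5 lower (beside 6.53%, or 10.7% in either direction). Dnajc6, Dnajb1, Hspa1a and Hspa1b were at least 2-fold lower in mLN in both housings, with Hsph1 added in SPF mice (6.41% of all genes lower in SPF, 6.87% in GF). Hspb8 was at least 2-fold higher in mLN in both, with Hspb1 added in GF mice (3.99% and 4.57% of all genes higher).

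Hspa1a (chr17:34969190-34972156) is expressed strongly after stress and at low levels otherwise. Its levels were 43.2, 31.2 and 39.0 RPKM in mLN SPF, 98.9, 48.1 and 68.9 in mLN GF, 72.8, 220 and 146 in pLN SPF and 151, 173 and 168 in pLN GF (replicates 1 to 3). Every pLN library lay above the mLN libraries of the same housing, while mLN GF replicate 1 lay above pLN SPF replicate 1. Of all genes tested, 43.5% in SPF and 50.2% in GF mice showed no overlap between the nodes. Hspa1a was 3.48-fold lower in mLN than in pLN of SPF mice (log2 difference -1.80 ± 0.31 (SE), adjusted p = 0.000234) and 2.35-fold lower in GF mice (-1.23 ± 0.31, adjusted p = 0.00488).

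Hspa1b, its neighbour (chr17:34956436-34959238), encodes a nearly identical protein. It stood at 64.8, 50.0 and 53.4 RPKM in mLN SPF, 141, 63.1 and 89.9 in mLN GF, 91.5, 387 and 211 in pLN SPF and 204, 225 and 203 in pLN GF. As for Hspa1a, the nodes did not overlap within either housing, and the spread was widest in pLN SPF. The difference was 3.47-fold lower in mLN of SPF mice (-1.79 ± 0.37, adjusted p = 0.00123) and 2.25-fold lower in GF mice (-1.17 ± 0.37, adjusted p = 0.0214), the latter no longer past the threshold without mLN GF replicate 2 (adjusted p = 0.103), mLN GF replicate 3 (0.0584), pLN GF replicate 2 (0.0591) or pLN GF replicate 3 (0.0538). Of the 50-base stretches in the transcripts of Hspa1a, 66.3% also occur in other genes, most in Hspa1b, so how the reads were split between the pair is uncertain.

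Dnajb1 (chr8:83608193-83612653) showed no overlap between all 6 mLN and all 6 pLN libraries, as did 25.5% of all genes. Its levels were 123, 157 and 134 RPKM in mLN SPF, 203, 147 and 165 in mLN GF, 229, 527 and 347 in pLN SPF and 334, 418 and 394 in pLN GF. It was lower in mLN by 2.52-fold in SPF mice (-1.33 ± 0.22, adjusted p = 0.000212) and by 2.23-fold in GF mice (-1.16 ± 0.22, adjusted p = 0.000705). It kept both calls under every alternative that was run.

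Hsph1 (Hsp105, chr5:149614287-149636376) acts as a nucleotide exchange factor of Hsp70 and rises with heat. Its levels were 8.37, 7.001 and 7.23 RPKM in mLN SPF, 20.8, 20.3 and 19.7 in mLN GF, 10.5, 50.0 and 29.4 in pLN SPF and 27.3, 33.0 and 29.9 in pLN GF. The mLN SPF libraries were the lowest of all 12, and pLN SPF spanned the widest range. In SPF mice Hsph1 was 3.07-fold lower in mLN (-1.62 ± 0.34, adjusted p = 0.00147), and in GF mice the difference of -0.54 ± 0.34 did not pass (adjusted p = 0.243). The 3 libraries of each node did not overlap in GF mice, as for 50.2% of all genes.

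Hspe1, the mitochondrial co-chaperonin of the Hspd1 folding chamber, moved the same way with a smaller size. It stood at 28.0, 27.7 and 35.7 RPKM in mLN SPF, 45.2, 49.3 and 43.8 in mLN GF, 41.7, 71.9 and 60.1 in pLN SPF and 71.8, 70.0 and 103 in pLN GF, the last being the library with the fewest reads. The difference was 1.84-fold in SPF mice (-0.88 ± 0.19, adjusted p = 0.00157) and 1.73-fold in GF mice (-0.79 ± 0.19, adjusted p = 0.00342). Its partner Hspd1, read from the same stretch in the opposite direction, showed log2 differences of 0.17 ± 0.12 and 0.08 ± 0.12 that did not pass in either housing (adjusted p = 0.317 and 0.641). Of the 50-base stretches in their transcripts, 22.8% for Hspe1 and 42.1% for Hspd1 also occur in other genes, so both levels are uncertain.

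**Figure D1:**
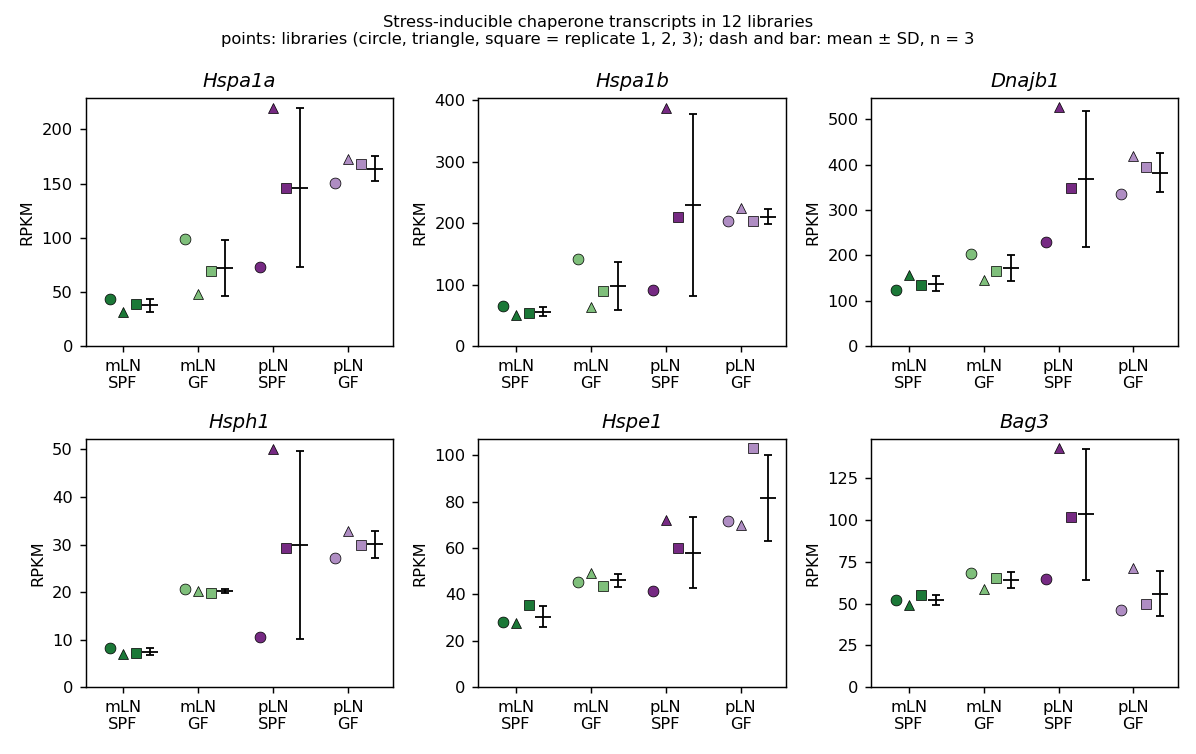
RPKM (linear axis from 0) of Hspa1a, Hspa1b, Dnajb1, Hsph1, Hspe1 and Bag3 in each of the 12 libraries, by group; circles, triangles and squares are replicates 1, 2 and 3, and the dash with its bar is the mean ± SD (n = 3). In pLN SPF, replicate 2 is the highest library for Hspa1a (220 RPKM), Dnajb1 (527) and Bag3 (143), and replicate 1 is the lowest of its group in all 6 panels.

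Bag3 (chr7:128523616-128546981), which links Hsp70 to selective autophagy and is itself stress-inducible, differed by location in SPF mice. It stood at 52.1, 49.3 and 54.9 RPKM in mLN SPF, 68.3, 58.8 and 65.5 in mLN GF, 64.7, 143 and 102 in pLN SPF and 46.3, 71.2 and 50.0 in pLN GF. The pLN SPF libraries lay above the mLN SPF libraries, whereas mLN GF and pLN GF overlapped. The difference was 1.87-fold in SPF mice (-0.90 ± 0.22, adjusted p = 0.00433), with 0.22 ± 0.22 in GF mice (adjusted p = 0.477), and the call in SPF mice ended without both SPF replicate 2 libraries (adjusted p = 0.0543).

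Hsp90aa1, the inducible cytosolic Hsp90, stood at 36.01, 30.4 and 36.3 RPKM in mLN SPF, 61.6, 49.8 and 51.6 in mLN GF, 38.1, 64.8 and 52.0 in pLN SPF and 50.3, 69.9 and 66.2 in pLN GF. It was lower in mLN of SPF mice by 1.46-fold (-0.55 ± 0.18, adjusted p = 0.0240), a call that ended without mLN SPF replicate 2 (adjusted p = 0.0874), pLN SPF replicate 2 (0.111) or pLN SPF replicate 3 (0.0712). Without both SPF replicate 2 libraries its adjusted p was 0.262. Of the 50-base stretches in its transcripts, 47.5% also occur in other genes, most in Gm5844, so its level is uncertain. Its constitutive counterpart Hsp90ab1 stood at 221, 238 and 226 RPKM in mLN SPF, 277, 283 and 269 in mLN GF, 174, 274 and 221 in pLN SPF and 232, 261 and 246 in pLN GF. The nodes overlapped for Hsp90ab1 in SPF mice, and its log2 differences of 0.06 ± 0.14 and 0.17 ± 0.14 did not pass in either housing. Hspa8, the constitutive cytosolic Hsp70, showed -0.29 ± 0.14 in SPF mice (adjusted p = 0.143) and -0.08 ± 0.14 in GF mice (adjusted p = 0.731). For Hspa8 39.4% of the 50-base stretches also occur in other genes. Dnaja1, a J-domain partner of Hspa8, stood at 19.9, 20.6 and 21.7 RPKM in mLN SPF, 25.6, 26.2 and 27.9 in mLN GF, 19.4, 32.8 and 22.6 in pLN SPF and 23.3, 27.6 and 28.3 in pLN GF, and it did not pass in any comparison. Hsf1, the factor of the heat shock element, stood at 14.6, 12.9 and 13.6 RPKM in mLN SPF, 13.1, 15.1 and 12.4 in mLN GF, 12.6, 12.1 and 12.9 in pLN SPF and 13.8, 12.9 and 12.1 in pLN GF. The mLN SPF and pLN SPF libraries of Hsf1 lay just apart, those of the other pairs overlapped, and it did not pass in any comparison.

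Dnajc6 (auxilin, chr4:101496648-101642799) recruits Hsc70 to strip clathrin from coated vesicles and is best known from neurons, so its function differs from that of the stress-inducible genes. It had the largest difference by location among the members. Its levels were 0.285, 0.252 and 0.143 RPKM in mLN SPF, 0.871, 0.204 and 0.455 in mLN GF, 3.99, 8.02 and 5.43 in pLN SPF and 7.90, 4.29 and 5.91 in pLN GF, with no overlap between the nodes. On the log2(RPKM + 1) scale, which understates changes of low genes, it was 5.40-fold lower in mLN of SPF mice (-2.43 ± 0.22, adjusted p = 2.77e-07) and 4.63-fold lower in GF mice (-2.21 ± 0.22, adjusted p = 7.76e-07). Between 9 and 595 reads stood behind each value.

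**Figure D2:**
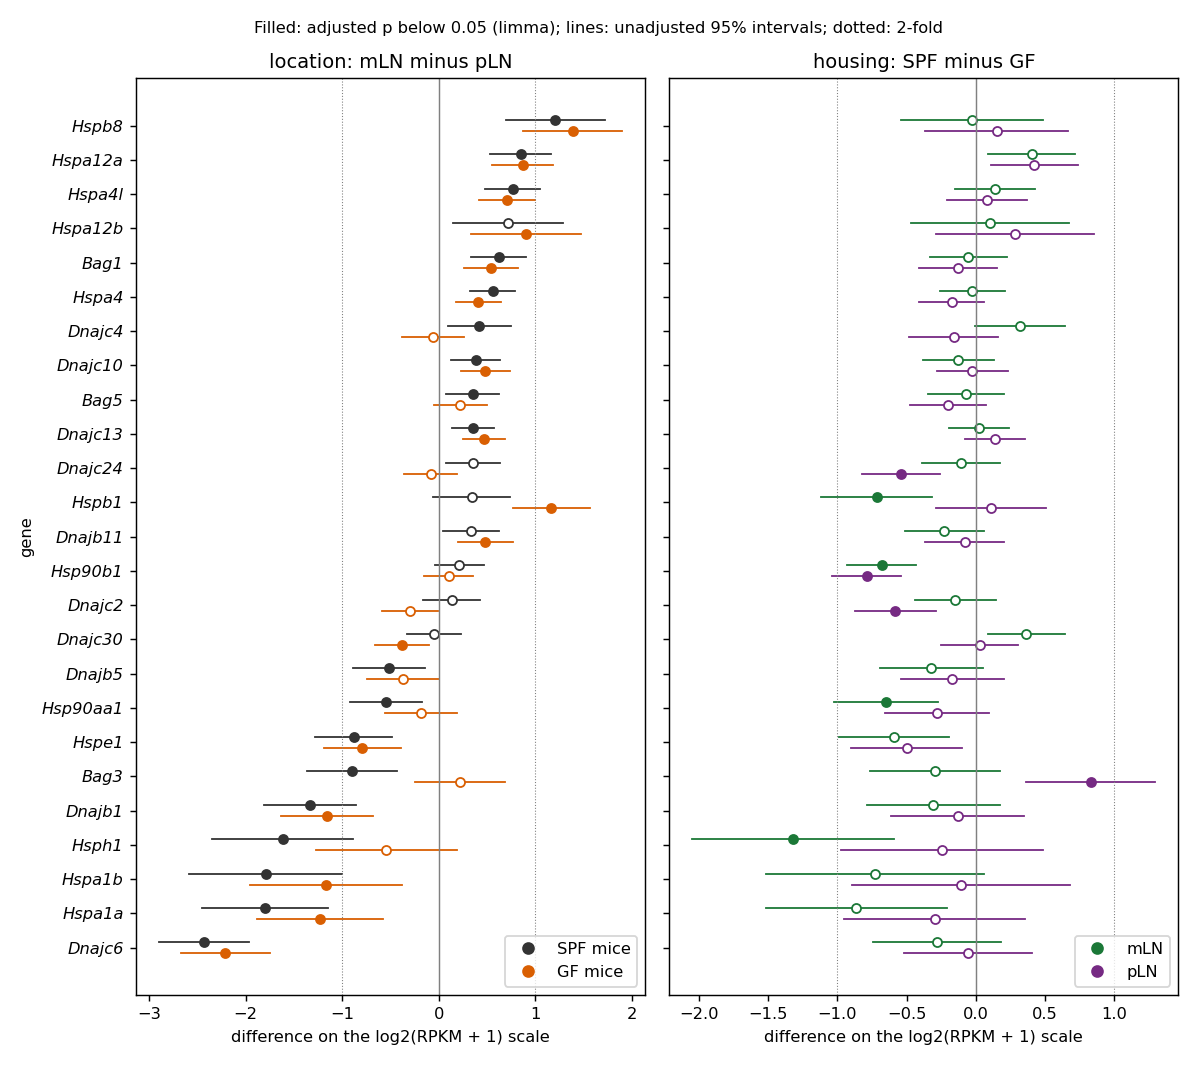
Differences on the log2(RPKM + 1) scale for the 25 members past an adjusted p of 0.05 in any of 4 comparisons, with location (mLN minus pLN) on the left and housing (SPF minus GF) on the right; lines are unadjusted 95% intervals, filled points passed limma's adjusted p of 0.05 and dotted lines mark 2-fold. Dnajc6 lies at -2.43 in SPF and -2.21 in GF mice, Hspb8 at 1.21 and 1.39, and the other 37 members, not drawn, passed in none of the 4.

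Members higher in mLN in both housings included Hspb8, Hspa12a, Hspa4l, Hspa4 and Bag1. Hspb8 (chr5:116408491-116422864), which partners with Bag3 in clearing misfolded proteins, stood at 28.2, 37.8 and 32.5 RPKM in mLN SPF, 26.8, 38.8 and 35.4 in mLN GF, 16.6, 12.4 and 11.96 in pLN SPF and 8.13, 20.1 and 10.7 in pLN GF. All mLN libraries were above all pLN libraries. It was 2.31-fold higher in mLN of SPF mice (1.21 ± 0.24, adjusted p = 0.000927) and 2.62-fold higher in GF mice (1.39 ± 0.24, adjusted p = 0.000258). Hspb8 and its partner Bag3 thus differed in opposite directions in SPF mice.

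Hspb1 (Hsp25), which protects actin filaments and holds unfolded clients, stood at 70.4, 53.7 and 73.0 RPKM in mLN SPF, 117, 96.8 and 110 in mLN GF, 40.0, 57.4 and 58.3 in pLN SPF and 36.1, 60.0 and 49.2 in pLN GF. The mLN GF libraries were above all others. It was 2.24-fold higher in mLN of GF mice (1.17 ± 0.19, adjusted p = 0.000123), with 0.34 ± 0.19 in SPF mice (adjusted p = 0.181). Of the 50-base stretches in its transcript, 50.1% also occur in other genes, most in the pseudogene Hsp25-ps1, so its level is uncertain.

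Other members that were higher in mLN in both housings changed by less than 2-fold on the log2(RPKM + 1) scale, which understates changes of low genes. For Hspa4l and Hspa12a the group means of RPKM itself differed by more than 2-fold. Hspa4l averaged 1.87 (mLN SPF) against 0.697 (pLN SPF), and 1.64 (mLN GF) against 0.604 (pLN GF). Hspa12a averaged 4.43 (mLN SPF) against 2.02 (pLN SPF), and 3.09 (mLN GF) against 1.28 (pLN GF). Hspa12a, an atypical Hsp70, stood at 3.81, 4.99 and 4.49 RPKM in mLN SPF, 3.13, 3.12 and 3.02 in mLN GF, 2.43, 1.75 and 1.87 in pLN SPF and 1.27, 1.76 and 0.801 in pLN GF. The nodes did not overlap for Hspa12a, with log2 differences of 0.85 ± 0.15 in SPF (adjusted p = 0.000289) and 0.87 ± 0.15 in GF mice (adjusted p = 0.000219). Hspa4l and Hspa4, Hsp110-type exchange factors of the same kind as Hsph1, were also higher in mLN, the direction opposite to that of Hsph1 in SPF mice. Hspa4l rose by 0.76 ± 0.14 in SPF (adjusted p = 0.000332) and 0.71 ± 0.14 in GF mice (adjusted p = 0.000608) from levels of 0.447 to 0.882 RPKM in pLN to 1.22 to 2.17 in mLN. Hspa4 differed by 0.56 ± 0.11 (adjusted p = 0.000873) and 0.41 ± 0.11 (adjusted p = 0.00805). Bag1, an exchange factor that couples Hsp70 to the proteasome, had 75.3 to 83.9 RPKM in mLN and 39.9 to 59.9 in pLN, with differences of 0.62 ± 0.13 (adjusted p = 0.00159) and 0.54 ± 0.13 (adjusted p = 0.00420).

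Dnajc10, a disulphide reductase of the endoplasmic reticulum, and Dnajc13, an endosomal J-domain protein, were the other members higher in mLN in both housings, by log2 differences of 0.35 to 0.48. Dnajc10 stood at 61.9, 80.5 and 68.9 RPKM in mLN SPF, 77.8, 74.7 and 77.2 in mLN GF, 47.7, 59.8 and 53.8 in pLN SPF and 55.2, 52.2 and 56.1 in pLN GF. In SPF mice both calls ended under median-of-ratios scaling (adjusted p = 0.0730 for Dnajc10 and 0.0528 for Dnajc13), and that of Dnajc10 also without mLN SPF replicate 2 (0.105) or 3 (0.0536) or pLN SPF replicate 1 (0.0873) or 3 (0.0578). In total 9 members had all 6 mLN libraries apart from all 6 pLN libraries (Bag1, Dnajb1, Dnajc6, Dnajc10, Dnajc13, Hspa12a, Hspa4, Hspa4l and Hspb8), where 25.5% of all genes did. Of the rest, Bag5, Dnajc4 and Dnajb5 passed in SPF mice alone and Dnajb11, Hspa12b and Dnajc30 in GF mice alone. Each of these 6 lost its call without at least 1 single library, and the difference between the housings did not pass for any of them.

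**Figure D3:**
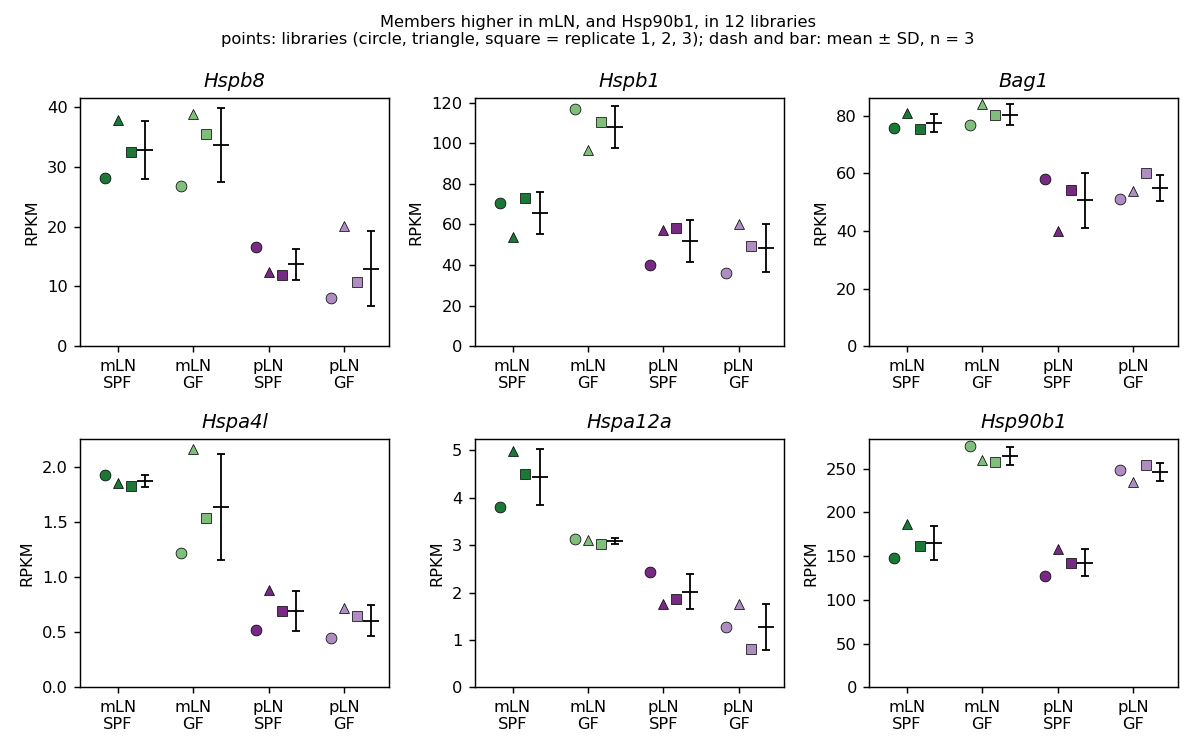
RPKM (linear axis from 0) of Hspb8, Hspb1, Bag1, Hspa4l, Hspa12a and Hsp90b1 in each of the 12 libraries; symbols and bars as in the plot of inducible chaperones (mean ± SD, n = 3). All 6 mLN libraries are above all 6 pLN libraries for Hspb8, Bag1, Hspa4l and Hspa12a, and Hsp90b1 lies between 127 and 186 RPKM in SPF and between 235 and 276 in GF mice.

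Housing was compared next, as SPF against GF within each node. Fewer members passed, and most of those were lower in SPF mice. In mLN 4 of the 62 members were lower in SPF mice (Hsp90aa1, Hsp90b1, Hspb1 and Hsph1, 6.45%, beside 2.08% of all genes lower). In the other direction 0 were higher (2.53% of all genes were, or 4.61% in either direction). Limma without adjustment gave 12 in mLN at p below 0.05 (19.4%, beside 16.3% of all genes). In pLN 3 were lower (Dnajc2, Dnajc24 and Hsp90b1, beside 6.74% of all genes) and 1 was higher (Bag3, beside 4.05%, or 10.8% in either direction). At 2-fold or more, Hsph1 in mLN was the only call (1.61%, beside 0.481% of all genes lower, 0.266% higher and 0.748% in either direction). At that demand pLN had 0 (beside 0.635% higher, 0.42% lower and 1.05% in either direction). Limma without adjustment or fold demand gave 12 in pLN at p below 0.05 (19.4%, beside 26% of all genes).

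Hsp90b1, which folds integrins and Toll-like receptors in the endoplasmic reticulum, was lower in SPF mice in both nodes. Its levels were 148, 186 and 161 RPKM in mLN SPF, 276, 259 and 258 in mLN GF, 127, 158 and 142 in pLN SPF and 249, 235 and 254 in pLN GF. All 6 SPF libraries were below all 6 GF libraries. The difference was 1.60-fold in mLN (-0.68 ± 0.12, adjusted p = 0.00319) and 1.73-fold in pLN (-0.79 ± 0.12, adjusted p = 0.000852), and both calls held under every alternative run. By location it did not pass, with 0.21 ± 0.12 in SPF mice (adjusted p = 0.190) and 0.10 ± 0.12 in GF mice (adjusted p = 0.543).

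Hsph1 was 2.50-fold lower in SPF than in GF mice in mLN (-1.32 ± 0.34, adjusted p = 0.0399) on the levels given above, 7.001 to 8.37 against 19.7 to 20.8 RPKM. Those groups did not overlap, as for 26% of all genes between SPF and GF mice in mLN. The call was lost (adjusted p of 0.05004 to 0.119) in 9 of the 12 fits that left out 1 library, the exceptions being pLN GF replicate 1 and pLN SPF replicates 1 and 2. Limma used one estimate of the spread over all 4 groups, and its part in these losses was not tested. Hspa1a followed in size, with -0.86 ± 0.31 (adjusted p = 0.146), and Hspa1b with -0.73 ± 0.37 (adjusted p = 0.351), and neither passed with all 12 libraries, though Hspa1a did without pLN SPF replicate 1 (adjusted p = 0.0387). Hspb1 (-0.72 ± 0.19, adjusted p = 0.0416) and Hsp90aa1 (-0.65 ± 0.18, adjusted p = 0.0482) passed narrowly, and each lost its call without any 1 of the 6 mLN libraries (adjusted p of 0.0531 to 0.160 and of 0.0719 to 0.180). Both calls also ended without pLN GF replicate 3 (0.0595 and 0.0655) or pLN SPF replicate 3 (0.0528 and 0.0704), and that of Hsp90aa1 without pLN GF replicate 2 (0.0510) and with the replicate block (0.0619). In pLN these 5 genes did not pass, with log2 differences of -0.30 to 0.11.

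In pLN, Bag3 was 1.78-fold higher in SPF than in GF mice (0.83 ± 0.22, adjusted p = 0.0270), although pLN SPF replicate 1 (64.7 RPKM) lay below pLN GF replicate 2 (71.2). The call ended without pLN GF replicate 1 (adjusted p = 0.0934), pLN GF replicate 3 (0.115), pLN SPF replicate 2 (0.0862) or pLN SPF replicate 3 (0.0817). Dnajc2, a ribosome-associated J-domain protein, stood at 2.03, 2.25 and 2.78 RPKM in pLN SPF and 4.83, 3.29 and 3.98 in pLN GF, without overlap (-0.58 ± 0.14, adjusted p = 0.0162), and in mLN at 2.32, 2.60 and 3.10 (SPF) and 3.43, 2.99 and 2.77 (GF), where the groups overlapped (-0.15 ± 0.14, adjusted p = 0.650). Of all genes, 27.2% showed no overlap between SPF and GF mice in pLN. The call of Dnajc2 in pLN ended without pLN GF replicate 1 (adjusted p = 0.0642) or replicate 3 (0.0584). Dnajc24, needed for the diphthamide modification of elongation factor 2, differed by -0.54 ± 0.13 in pLN (adjusted p = 0.0183), lost without pLN GF replicate 3 (0.0970) or pLN SPF replicate 3 (0.0741).

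Averaged over both nodes, 11 members passed for housing (beside 7.15% of all genes higher, 8.99% lower and 16.1% in either direction). Of these 9 were lower in SPF mice (Dnajc2, Dnajc24, Dnajc25, Hsp90aa1, Hsp90b1, Hspb11, Hspd1, Hspe1 and Hsph1) and 2 were higher (Hspa12a and Hspa2). Several of these calls ended when 1 library was left out, with adjusted p of 0.0511 to 0.0806 in 10 of 12 such fits for Hsph1, 0.0549 to 0.103 in 9 for Hspa2, 0.0588 to 0.114 in 9 for Hspb11 and 0.0514 to 0.0813 in 6 for Dnajc24, and for Hsp90aa1 without pLN GF replicate 3 (0.0566). Those of Hsph1 and Hspb11 also ended under median-of-ratios scaling (0.0538 and 0.0675) and upper-quartile scaling (0.0539 and 0.0549). Hspd1 and Hspe1, the mitochondrial chaperonin pair, were both lower, by -0.33 ± 0.09 (adjusted p = 0.0185) and -0.54 ± 0.13 (adjusted p = 0.0128), the former lost without mLN GF replicate 3 (0.0529). At 2-fold or more none of the 62 was called (beside 0.287% higher, 0.256% lower and 0.543% of all genes in either direction). Limma at an unadjusted p below 0.05 with no fold demand gave 16 (25.8%, beside 30.9% of all genes).

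Whether the difference between nodes depended on housing was asked with the interaction term. By limma 0 of 62 members passed (beside 0.297% of all genes), and 7 had an unadjusted p below 0.05 (11.3%, beside 9.67% of all genes). The largest estimates were those of Bag3 (-1.12 ± 0.31, adjusted p = 0.181), Hsph1 (-1.08 ± 0.48, adjusted p = 0.488) and Hspb1 (-0.82 ± 0.26, adjusted p = 0.297). Without pLN SPF replicate 1, which held the lowest Hsph1 and Bag3 levels of its group, Hsph1 (-1.67, adjusted p = 0.00838) and Bag3 (-1.42, adjusted p = 0.0252) passed. The calls in one housing alone described above for Hsph1, Bag3 and Hspb1 are therefore not shown to differ between housings with all 12 libraries.

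The members were also grouped by compartment. Summed over a list of 16 heat shock response genes of the cytosol and mitochondria, which also holds the constitutive Hspa8 and Hsp90ab1, the level was 825 to 851 RPKM in mLN SPF, 1039 to 1260 in mLN GF, 924 to 2019 in pLN SPF and 1327 to 1591 in pLN GF. Within it, 2 genes were higher and 7 lower in mLN of SPF mice (beside 19.7% and 13.8% of all genes), and 3 higher and 4 lower in GF mice (beside 17.1% and 18.4%; median log2 difference -0.25 and -0.02, beside 0.10 and 0 over all genes). Without Hspa1a, Hspa1b and Dnajb1 the summed level of the other 13 was 594 to 621 RPKM in mLN SPF, 781 to 817 in mLN GF, 530 to 887 in pLN SPF and 638 to 774 in pLN GF, so that the SPF groups overlapped and mLN GF lay above pLN GF.

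Summed over 12 genes of the endoplasmic reticulum the level was 731 to 956 RPKM in mLN SPF, 967 to 1032 in mLN GF, 748 to 870 in pLN SPF and 885 to 913 in pLN GF. By location 1 of the 12 passed in SPF mice and 2 in GF mice, each higher in mLN (beside 19.7% and 17.1% of all genes higher), and by housing Hsp90b1 alone passed, lower in SPF mice in both nodes (beside 2.08% of all genes lower in mLN and 6.74% in pLN). Hspa5, which carries the same kind of element as Hsp90b1, stood at 398, 519 and 440 RPKM in mLN SPF, 477, 547 and 489 in mLN GF, 442, 499 and 466 in pLN SPF and 476, 467 and 451 in pLN GF. Its housing differences were -0.16 ± 0.12 in mLN (95% interval -0.41 to 0.09) and 0.01 ± 0.12 in pLN (-0.24 to 0.26).

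The mitochondrial list, of which 9 of 10 genes were in the table, summed to 154 to 170 RPKM in mLN SPF, 169 to 181 in mLN GF, 168 to 186 in pLN SPF and 198 to 260 in pLN GF. Of these 9 genes, 1 was higher (Dnajc4) and 1 lower (Hspe1) in mLN of SPF mice, beside 19.7% and 13.8% of all genes. In GF mice 0 were higher and 2 lower (Hspe1 and Dnajc30), beside 17.1% and 18.4%. Hspe1 was the single gene of the list that passed by location in both housings. Hspa9 (mortalin), the mitochondrial Hsp70, ranged from 27.4 to 39.2 RPKM and did not pass in any comparison.

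**Figure D4:**
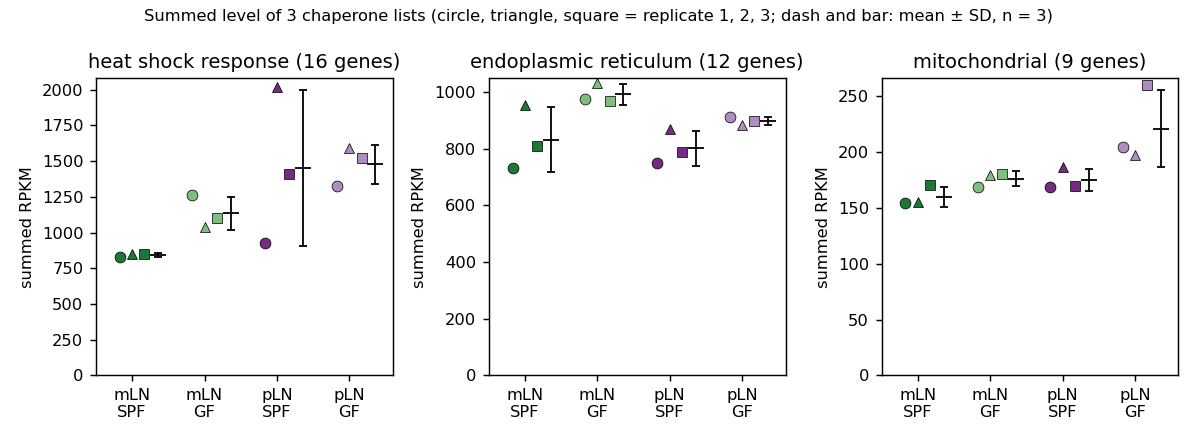
Summed RPKM (linear axis from 0) of 16 heat shock response, 12 endoplasmic reticulum and 9 mitochondrial chaperone genes in each of the 12 libraries, by group; circles, triangles and squares are replicates 1, 2 and 3, and the dash with its bar is the mean ± SD (n = 3). The heat shock response sum spans 924 to 2019 RPKM within pLN SPF and 825 to 851 within mLN SPF.

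Other genes of protein folding and stress were counted beside the set. Among 27 partners of Hsp70 and Hsp90 outside the name rule, 2 were higher and 0 lower in mLN of SPF mice (beside 19.7% and 13.8% of all genes). In GF mice 1 was higher and 3 lower in mLN (beside 17.1% and 18.4%). By housing 1 was lower in SPF mice in mLN (beside 2.08% of all genes) and 6 in pLN (beside 6.74%). Fkbp5, an Hsp90 co-chaperone of steroid receptors and a glucocorticoid target, changed most, from 28.7 to 42.5 RPKM in mLN GF to 8.49 to 15.3 in mLN SPF (-1.61 ± 0.20, adjusted p = 0.000317) and from 42.7 to 62.8 in pLN GF to 9.85 to 13.7 in pLN SPF (-2.13 ± 0.20, adjusted p = 1.64e-05).

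Of 13 genes of the chaperonin TRiC and prefoldin, 3 were higher in mLN of SPF mice (beside 19.7% of all genes). In GF mice 1 was higher and 1 lower in mLN (beside 17.1% and 18.4%). By housing 0 passed in mLN (beside 4.61% of all genes in either direction) and 3 were lower in SPF mice in pLN (beside 6.74%). Of 22 genes of the unfolded protein response, 4 were higher and 1 lower in mLN of SPF mice (beside 19.7% and 13.8% of all genes). In GF mice 7 were higher and 1 lower in mLN (beside 17.1% and 18.4%). By housing 1 was higher and 5 lower in SPF mice in mLN (beside 2.53% and 2.08% of all genes), and 1 higher and 3 lower in pLN (beside 4.05% and 6.74%). Sdf2l1 and Ppp1r15a had the largest changes of this list by housing in both nodes. Pdia6, a disulphide isomerase and next in size, was lower in SPF mice, as Hsp90b1 was. Its differences were -0.68 ± 0.10 in mLN (adjusted p = 0.00119) and -0.43 ± 0.10 in pLN (adjusted p = 0.0181).

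Immediate early genes, which respond within minutes to many stimuli, were more often lower than higher in mLN, as Hspa1a, Hspa1b and Dnajb1 were. Of 23 tested, 18 were lower and 2 higher in mLN of SPF mice (beside 13.8% and 19.7% of all genes). In GF mice 11 were lower and 2 higher in mLN (beside 18.4% and 17.1%). Their medians were -0.69 in SPF and -0.39 in GF mice, beside 0.10 and 0 over all genes. By housing 1 was higher in SPF mice in mLN (beside 2.53% of all genes) and 5 in pLN (beside 4.05%). None was lower in SPF mice (beside 2.08% in mLN and 6.74% in pLN). Their summed levels were 9359 to 10140 RPKM in mLN SPF, 8825 to 9309 in mLN GF, 13760 to 14580 in pLN SPF and 11150 to 12850 in pLN GF, so within pLN SPF they were narrow where the heat shock list was wide. Their part in the differences of Hspa1a, Hspa1b and Dnajb1 was not tested. Of 9 genes of ubiquitin and oxidative stress, 1 was higher and 3 lower in mLN in each housing. Over all genes these shares were 19.7% and 13.8% in SPF mice and 17.1% and 18.4% in GF mice. For housing 0 passed in either node (beside 4.61% of all genes in mLN and 10.8% in pLN, medians of 0.12 in mLN and 0.23 in pLN).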

How the data were processed

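The authors sequenced SMART-Seq v4 and Nextera XT libraries as single reads of 50 bp without strand information, aligned them with TopHat2 1.2.0 to GRCm38, counted reads per gene with HTSeq 0.12.4 and deposited RPKM values. The 8 other columns of the table hold the authors' own DESeq2 fold changes and adjusted p-values and were not used. Whole reads were recovered from the RPKM steps for 99.9% of genes (within 0.01 read, up to a common factor for each gene). Genes with at least 1 RPKM in at least 3 libraries (9764) were tested with limma 3.58.1 (R 4.3.3) on log2(RPKM + 1) across all 12 libraries with 4 group means and Benjamini-Hochberg adjustment over all of them. The test was checked on simulated data. Members by name, gene lists and tests were chosen with earlier results of these data known. Values are given per library for members called at adjusted p of 0.05 and 2-fold, the 3 largest changes in each pairwise comparison and the highest member of each family; other members were picked afterwards. Replicate numbers of SPF mLN and pLN deviated together (correlations 0.263, 0.456 and 0.182), those of GF mice less (0.228, 0.217 and 0.079), and no labelled origin of this pairing is given.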

Additional observations from a re-analysis of the deposited data

How the results depend on the processing

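Counts of members called at 2-fold by location were 6 in each housing under both other scalings (median-of-ratios and upper-quartile), with trend and robust variance, and with only the compared groups. Of all 9764 genes these settings called 1013 to 1016 in SPF and 1114 to 1117 in GF mice. A pseudocount of 0.1 gave 8 and 9 members (beside 1285 and 1390 of 9764 genes). With 1 RPKM in all 12 libraries there were 5 and 5 (beside 708 and 804 of 8883 genes). With no fold demand the counts were 18 and 16 by location in SPF and GF mice, 4 and 4 by housing in mLN and pLN, 20 and 11 for the averaged location and housing, and with 1.5-fold they were 11, 10, 4, 2, 11 and 2. Without a fold demand the shares of all genes were 33.5% and 35.4%, 4.61% and 10.8%, and 46.7% and 16.1%. Shares at 1.5-fold were not computed. For housing in mLN, the 2-fold count fell from 1 to 0 at a pseudocount of 0.1 or with no filter on low values, and the count by adjusted p from 4 to 1 under these settings and to 2 at a pseudocount of 0.5, under both scalings and without both SPF replicate 2 libraries. Over all genes the 2-fold calls went from 73 to 147 at a pseudocount of 0.1 and to 69 with no filter. Those by adjusted p went from 450 to between 395 and 433 under all of these settings. The averaged housing count at 2-fold was 1 without both SPF replicate 2 libraries (beside 57 of all genes). Leaving out 1 library gave, at 2-fold, 6 to 8 and 4 to 7 members by location in SPF and GF mice, 0 to 1 for housing in mLN, in pLN and averaged, 5 to 6 for the averaged location and 0 to 2 for the interaction, and by adjusted p 13 to 19, 13 to 17, 1 to 6, 1 to 6, 6 to 13 for averaged housing, 18 to 22 for averaged location and 0 to 2. Of all 9764 genes these fits called, at 2-fold, 962 to 1103 and 1019 to 1225 by location in SPF and GF mice. By housing they called 63 to 101 (mLN), 94 to 142 (pLN) and 49 to 63 (averaged). Averaged location had 1001 to 1109 and the interaction 13 to 38. By adjusted p there were 2713 to 3298, 2885 to 3746, 215 to 535 and 378 to 1176 in the 4 pairwise comparisons. They were 980 to 1667 (averaged housing), 4129 to 4721 (averaged location) and 13 to 58 (interaction). The cause was not tested.

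With the replicate block, the 2-fold counts were 6 by location in each housing, 1 and 0 by housing and 0 for the interaction. Of all 9764 genes it called 1016 and 1118 by location, 73 and 103 by housing and 27 for the interaction. By adjusted p, Hsp90aa1 (housing in mLN, 0.0619), Dnajc25 (averaged location) and Hspb11 (averaged housing) lost their calls. A replicate block within each housing, chosen after seeing the data, gave 22 and 18 members by location in SPF and GF mice. Over all genes the calls by location rose as well, from 3271 and 3458 to 3902 and 4056. No reported call by location was lost. The housing comparisons could not be made with this block, because each block lies within 1 housing. Direction was checked for members past an adjusted p of 0.05 in a comparison and for the 3 largest changes in each pairwise one. None of these was reversed in any alternative. For the interaction, the median of the members went from 0.032 to -0.045 under median-of-ratios and -0.043 under upper-quartile scaling. Over all genes it went from 0.076 to -0.009 and -0.006. Median-of-ratios scaling moved the median of all genes for location in SPF mice from 0.095 to 0.014. The depth limits values of low genes such as Dnajc6, and 3 libraries a group limit what can be called.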
